A study of Mus musculus with 8 samples.

Results

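Potassium channel genes were examined in the cerebral cortex of mice with a substitution in Ago2. The members were the protein-coding genes of the count table whose symbol starts with Kcn, except Kcnk9, and they numbered 93 of 55416 genes in the table. The prefix covers pore-forming subunits, their auxiliary subunits and the electrically silent subunits that only work in complexes.

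The RNA came from cortex of heterozygous knock-in mice with the genotype AGO2_L192P/+ (L192P) and of wild-type mice (WT). Each genotype had 4 libraries. Ago2 encodes Argonaute 2, the protein that carries a microRNA (miRNA) to matching sites in mRNAs and lowers their output. The comparison addressed which cortical transcripts differ in abundance when 1 Ago2 allele carries the substitution. The allele was made with CRISPR/Cas9 in C57BL/6JUke zygotes from a repair template that also carried a silent change. Founders were crossed to C57/Bl6 animals, and heterozygotes were bred with wild-type mice. Whether the wild-type animals sequenced came from these crosses is not stated, and no other allele or treatment is given for either group. The age and sex of the animals and the number of founder lines are not given in the sources used here. The labels number the libraries but do not state separate animals, so the p-values below measure the spread between these libraries.

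Reads were counted per gene, and the libraries held 20396357 to 43575900 counts, of which 0.525 to 0.569% fell in potassium channel genes. Both libraries numbered replicate 1 stood apart from the other 6: Xist, transcribed from the inactive X chromosome, had 0.934 and 1.82 normalized counts in them and 5180 to 7260 elsewhere. A normalized count is the deposited count divided by the DESeq2 size factor of its library. Over all genes, same-numbered libraries of both genotypes deviated together from their group means, so a fit with the replicate number as a block is given beside each result that it changes. Over the 80 tested members alone these correlations were -0.06, 0.48, -0.09 and 0.37 for replicates 1 to 4, and up to 0.47 between differently numbered libraries. Ago2 itself had 2291 ± 75.1 normalized counts in L192P and 2246 ± 130 in WT (SD, n = 4 each), and did not pass (log2 fold change 0.03, SE 0.06, DESeq2 adjusted p = 0.968). Summed normalized counts of 6 excitatory neuron markers were 36557 to 41387 in L192P and 41868 to 43798 in WT, and 0 of the markers passed with DESeq2, while 3 (Slc17a7, Neurod6 and Tbr1) passed with the block. Those of 6 striatal markers were 26453 to 33038 in L192P and 34891 to 42556 in WT, with 2 of them lower, Penk included. The groups did not overlap in either sum. The part of these markers in the channel results was not tested, and in bulk tissue fewer cells of a type cannot be told apart from less RNA per cell.

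Potassium channels let potassium leave or enter the cell and so set resting potential, spike threshold, spike shape and firing rate. Voltage-gated subunits of the Kv families assemble as tetramers whose makeup depends on which subunit genes a neuron transcribes, and auxiliary subunits adjust their gating and delivery to the membrane. Calcium- and sodium-activated channels couple firing to ion entry, while inward rectifiers and two-pore channels hold the resting potential. Variants in several genes of the family are known from human epilepsy and developmental disorders.

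Most of the family was transcribed in the cortex. Kcnj1, a kidney channel, had 0 counts in all 8 libraries, which allows at most 3 of the pooled 202490608 counts (counting error only). A further 12 genes had counts but no adjusted p, among them Kcna10, Kcne1, Kcnk16 and Kcnk18, so 80 genes were tested. Of all 93, 13 had a mean under 10 normalized counts and 34 had at least 1000.

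Levels between genes were compared as mean normalized counts per kilobase of exon. The length joined all annotated exons of a gene, used in cortex or not, so genes with many annotated exons can be understated. Kcnab2, a Kv1 beta subunit, stood at 1238 ± 120 (SD over 8 libraries), and Kcnip2, a calcium-binding Kv4 subunit, at 1237 ± 103. These were followed by the inward rectifier Kcnj4 (1038 ± 86), the Kv4 subunit Kcnip3 (977 ± 61) and the two-pore channel Kcnk1 (880 ± 69.4). The silent subunit Kcnf1 stood at 720 ± 63.4. Kcnab2 and Kcnip2 differed by less than either SD, and the ranges over the 8 libraries overlapped between all neighbours among these 6 genes. Kcna2, an axonal Kv1 subunit, stood at 581 ± 39.3 and Kcnc1, a Kv3 subunit, at 511 ± 17.8. By this measure auxiliary subunits stood among the highest members. Summed over the subfamily, Kcnip genes reached 2690 counts per kilobase and Kcnab genes 2090. The pore subunits they join reached 731 (Kcnd) and 1560 (Kcna).

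**Figure D1:**
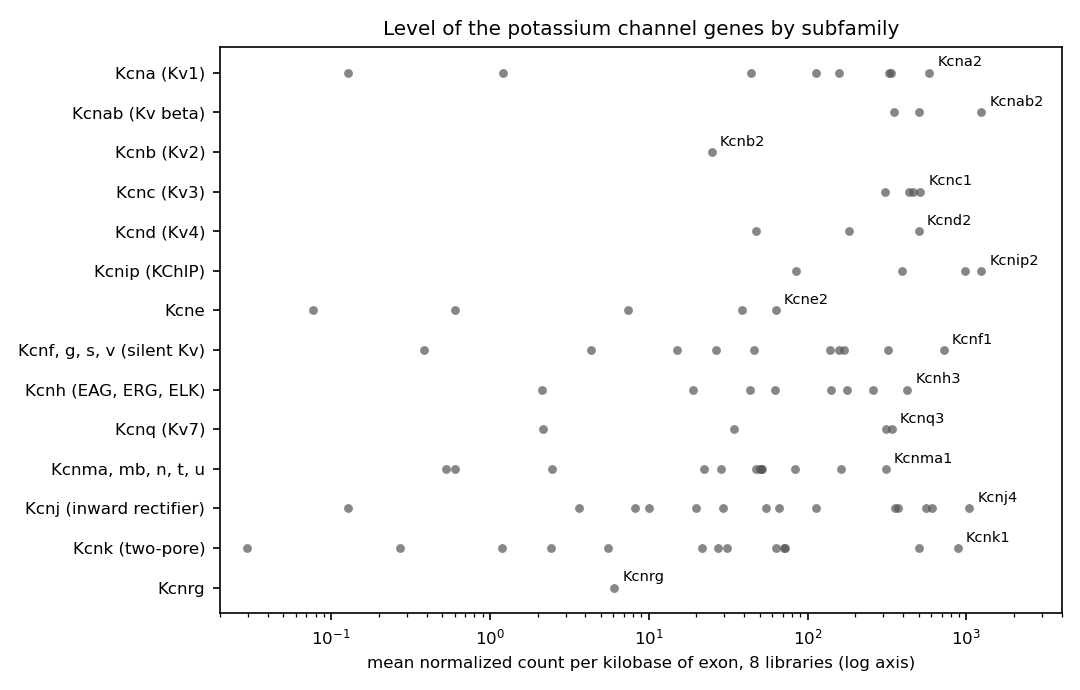
Mean normalized count per kilobase of exon over 8 libraries (log axis) for potassium channel genes with a count, by subfamily, with the highest gene drawn in each subfamily named. Kcnab2 and Kcnip2 stood near 1238 counts per kilobase, and most subfamilies spanned a wide range of levels.

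Since Argonaute 2 reads mRNAs through the seed of its miRNA, bases 2 to 8, the seed matches of the members are described before their fold changes. Mature sequences were taken from RefSeq (GRCm38.p6 table) for 10 of 11 miRNAs chosen for the brain or for the study's subject, all but miR-124-3p. The miRNAs with matches in the 3 genes shown further on are printed 5′ to 3′ with the seed in capitals, since they carry the letters that were searched for. No pair of them shares a seed.
miR-29a-3p: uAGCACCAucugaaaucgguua
miR-92a-3p: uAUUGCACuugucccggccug
miR-128-3p: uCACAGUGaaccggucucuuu
miR-132-3p: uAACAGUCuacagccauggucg
miR-5121: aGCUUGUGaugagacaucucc

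A match was the exact reverse complement of the seed in the 3′ UTR of the gene's canonical transcript (GENCODE M39, GRCm39), on the transcript strand. Among genes that passed with the replicate number as a block, Kcnab3 (3′ UTR of 901 bases) held no match to the 10 seeds. The letters searched were TGGTGCT for miR-29a-3p (in 16.7% of 14887 tested genes), GTGCAAT for miR-92a-3p (8.07%), CACTGTG for miR-128-3p (24.5%), GACTGTT for miR-132-3p (13.7%) and CACAAGC for miR-5121 (11.2%). For the other 5 they were ACCAAAG for miR-9-5p (15.5%), CTACCTC for let-7a-5p (11.6%), TACTTGA for miR-26a-5p (12.1%), CACCAGC for miR-138-5p (15.8%) and GGGATGC for miR-324-5p (9.49%). Kcnip2 held 1, Kcns1 2 and Kcnd3 3 matches. Sites from these genes, both those that were lower and the gene that was higher in L192P, are printed 5′ to 3′ in the sense of the transcript, with the bases that pair with the seed in capitals.
Kcnip2, miR-29a-3p, chr19:45781745-45781772, minus strand: agacggaatatctcctgctaTGGTGCTt
Kcnd3, miR-92a-3p, chr3:105579177-105579204, plus strand: tgaagaccaatagctctctgGTGCAATg
Kcns1, miR-128-3p, chr2:164005732-164005759, minus strand: caatatgggagggcccagccCACTGTGg
Kcnd3, miR-128-3p, chr3:105576910-105576937, plus strand: caaacaggaagaaaatataaCACTGTGt
Kcnd3, miR-132-3p, chr3:105578829-105578856, plus strand: gaaaagaaatacattttaaaGACTGTTc
Kcns1, miR-5121, chr2:164005854-164005881, minus strand: gttgcatgcacctgacctgaCACAAGCt

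The same 7 letters thus occurred in genes of either direction: Kcns1, with fewer normalized counts in L192P, and Kcnd3, with more, both held CACTGTG. Across the family, 56 of 79 tested members with an annotated 3′ UTR (70.9%) held at least 1 match, against 63.6% of 14887 tested genes, and the median 3′ UTR was 1843 bases in members and 1362 bases in all. The most frequent was the miR-128-3p site, in 36.7% of members and 24.5% of all genes. Members with any match had a median log2 fold change of -0.06 and the 23 without one -0.05. A match is a run of letters and not a shown binding site, and no test was made of these shares.

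Between genotypes, differences in the family were small. Of 80 tested members 1 passed the test (1.25%), where 1.36% of 18627 tested genes passed in either direction and 0.569% were lower in L192P. With the replicate block, 6 of 68 tested members passed (8.82%), where 4.25% of all genes did. Of these 6, 5 were lower, Kcnip2, Kcns1 and Kcnab3 among them (7.35% of members, 2.43% of all genes), and Kcnd3 was higher (1.47% of members, 1.82% of all genes). Without both replicate 1 libraries, 6 of 72 tested members passed, 4 of them shared with the block (Kcnip2 and Kcnd3 included), against 3.46% of 14437 genes. Kcnh1 and Kcnq5 passed there and not with the block. The share of all genes called thus also moved with the fit. By edgeR and by limma-voom, 0 members passed, where only 55 and 45 of all genes did, so these counts of 0 say little about the family.

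At an unadjusted p under 0.05, 10 members were lower (12.5%, against 4.49% of all genes) and 5 were higher (6.25%, against 4.94%). The values of 3 members lay lower in every L192P library than in any WT library, Kcnip2 and Kcnab3 among them (3.75%, against 2.96% of all genes). Kcnh8 was the 1 member with every L192P value above every WT value (1.25%, against 3.01%). The median log2 fold change was -0.05 over the 80 members and 0.00 over all genes tested, and 52 members lay below 0 and 28 above.

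Abundant members lay mostly below 0. Of 34 members with a mean of at least 1000 normalized counts, 29 had a log2 fold change below 0 (85.3%, median -0.07), where 57.2% of 5425 such genes did (median -0.02). Of the 30 members between 100 and 1000, 16 lay below 0, and of the 16 between 10 and 100, 7 did. With size factors from total counts, which raised the median of all genes by 0.024, 26 of the 34 lay below 0, against 45.8% of all genes at that level. Leaving out each library in turn gave 25 to 29 of 34. The median SE was 0.08 in the abundant class, 0.12 in the middle class and 0.35 in the lowest, so a change of a given size was far less detectable in rare members.

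**Figure D2:**
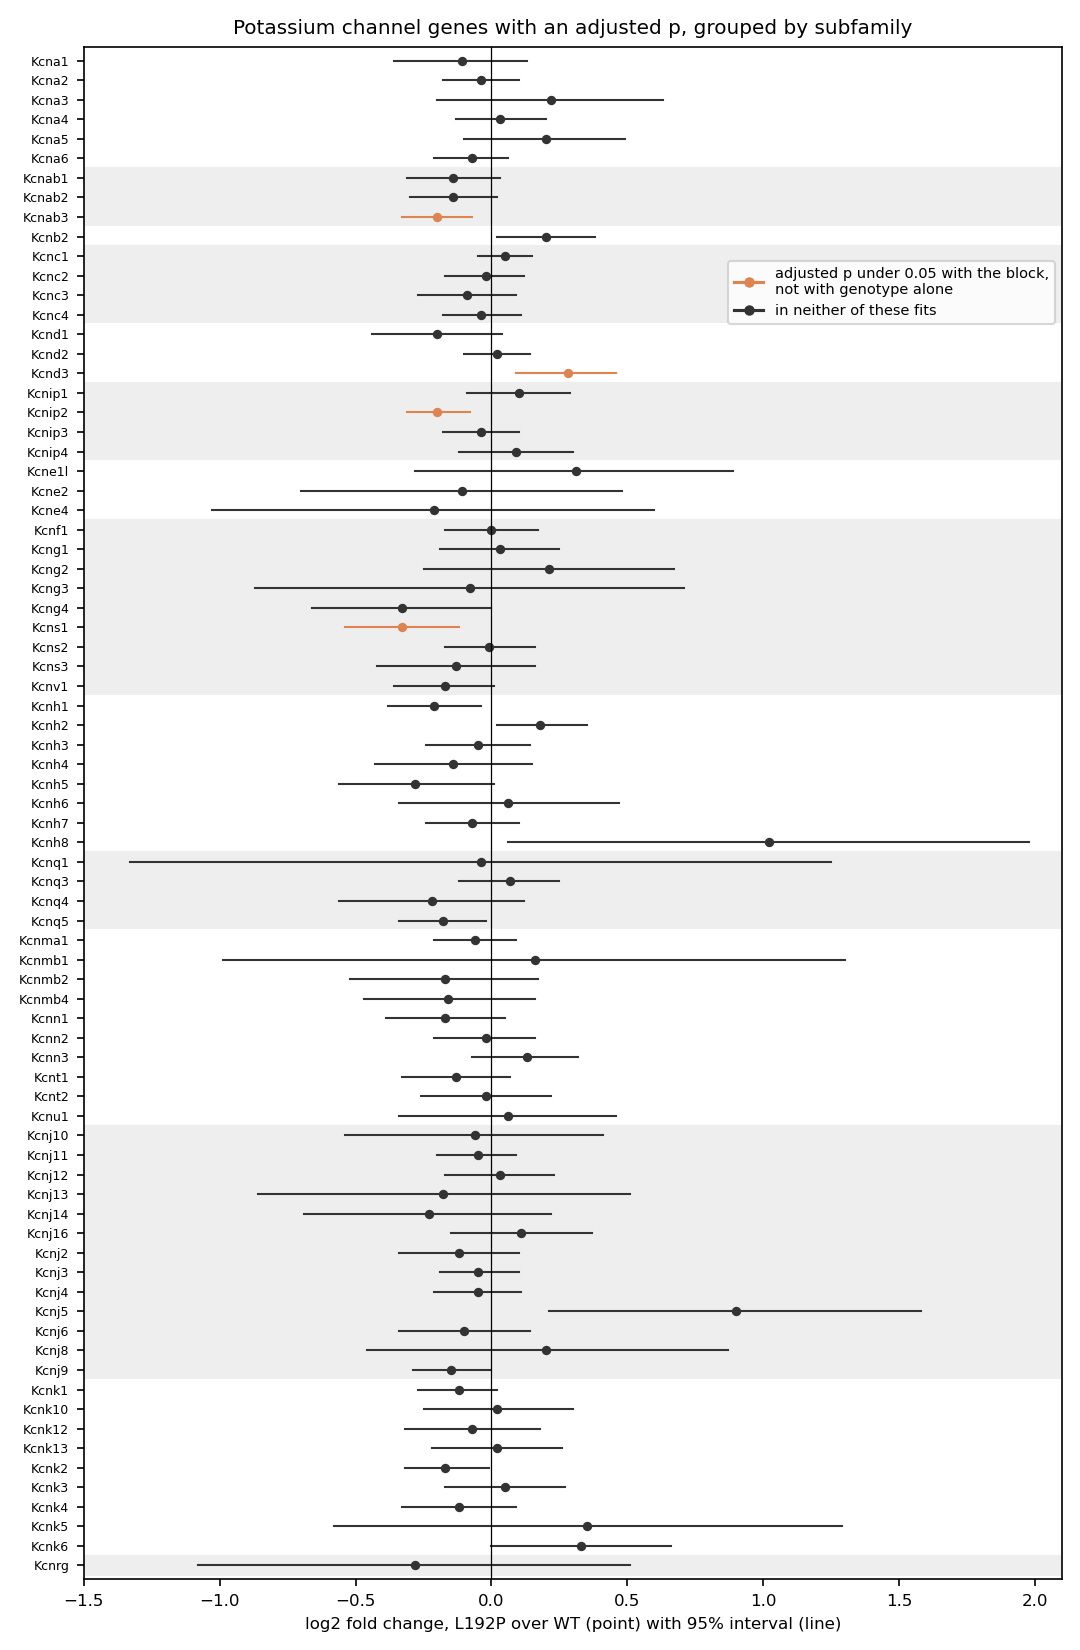
DESeq2 log2 fold change of L192P over WT for 78 tested potassium channel genes (points) with 95% intervals (lines), grouped by subfamily with shading. 68 of the 78 points lay between -0.25 and 0.25, and the 4 orange points passed with the replicate number as a block but not with genotype as the only term.

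Kv7 channels carry the M-current, a slow potassium current that restrains repetitive firing. Kcnq5, a neuronal Kv7 subunit, had 2540, 1946, 2123 and 2336 normalized counts in L192P replicates 1 to 4 and 2554, 2457, 2538 and 2592 in WT. L192P replicate 1 lay inside the narrow WT range and the other 3 L192P libraries lay below it. The log2 fold change was -0.18 (SE 0.08, DESeq2 adjusted p = 0.406, 0.0733 with the block, 0.0414 without both replicate 1 libraries). Without L192P replicate 2 the DESeq2 adjusted p was 0.818, and Kcnq5 passed in 1 of 17 alternative fits. Over the 5 Kv7 genes, 4 lay below 0 and the median was -0.18.

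Kv4 channels carry the fast A-type current of dendrites and cell bodies, with Kcnd2 and Kcnd3 as the main pore subunits in brain and Kcnip proteins as calcium-binding partners. Kcnip2 (ENSMUSG00000025221, GRCm39 chr19:45780278-45804836, minus strand) had 4536, 4881, 4381 and 4712 normalized counts in L192P replicates 1 to 4 and 5067, 5531, 5448 and 5139 in WT. Every L192P library lay below every WT library. The means were 4628 ± 216 and 5296 ± 228 (SD, n = 4 each), a log2 fold change of -0.20 (SE 0.06, 95% interval -0.31 to -0.08, DESeq2 adjusted p = 0.0594). The exact two-sided permutation p was 0.0286, the smallest that 4 against 4 allows. Groups that do not overlap always give this value, so it only repeats the non-overlap, and it ignores any pairing of library numbers. With the replicate block the DESeq2 adjusted p was 0.00546, without both replicate 1 libraries it was 0.0348, and without WT replicate 1 alone 0.0229. Kcnip2 passed in 5 of 17 alternative fits and shares no exon with another annotated gene.

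Kcnd3 (ENSMUSG00000040896, GRCm39 chr3:105359284-105581318, plus strand) had 2054, 1765, 2050 and 2095 normalized counts in L192P replicates 1 to 4 and 1875, 1470, 1473 and 1755 in WT. Only L192P replicate 2 lay below the highest WT library, replicate 1. Kcnd3 had a log2 fold change of 0.28 (SE 0.09, 95% interval 0.09 to 0.46) with a DESeq2 adjusted p of 0.134. The DESeq2 adjusted p was 0.0031 with the block, 0.0127 without both replicate 1 libraries and 0.00599 without WT replicate 1 alone. Without WT replicate 3 it was 0.503, and Kcnd3 passed in 3 of 17 alternative fits. Exons of a gene on the opposite strand, Kcnd3os, overlap it, as is the case for 47 of 93 members (Kcns1 and Kcnab3 among them), and whether counting used strand is not given. Kcnd2, the most abundant of the 3 Kv4 genes, had 2915 ± 103 in L192P and 2878 ± 140 in WT (log2 fold change 0.02, SE 0.06, 95% interval -0.10 to 0.14, DESeq2 adjusted p = 0.984). Other Kcnip genes had log2 fold changes of at most 0.10 in either direction, and none passed.

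Kv2 channels give the main delayed rectifier of neuronal cell bodies. Kcnb2, a Kv2 pore subunit, had 575, 568, 528 and 610 normalized counts in L192P replicates 1 to 4 and 494, 457, 480 and 558 in WT. The highest WT library, replicate 4, lay above the lowest L192P library. The log2 fold change was 0.20 (SE 0.09) and short of the threshold, with a DESeq2 adjusted p of 0.427 and of 0.323 with the block.

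Silent subunits form no channel alone and join Kv2 subunits to change their gating. Kcns1 (ENSMUSG00000040164, GRCm39 chr2:164005539-164013227, minus strand) had 396, 521, 421 and 426 normalized counts in L192P replicates 1 to 4 and 495, 598, 541 and 577 in WT. L192P replicate 2 lay above WT replicate 1, and the other 3 L192P libraries lay below all WT libraries. For Kcns1 the log2 fold change was -0.33 (SE 0.11) with a DESeq2 adjusted p of 0.115. The DESeq2 adjusted p was 0.0407 with the block and 0.1 without both replicate 1 libraries. It was 0.0186 without L192P replicate 2, 0.0317 without WT replicate 1 and 0.442 without WT replicate 2. Kcns1 passed in 3 of 17 alternative fits. Kcng4, another Kv2 modifier, had 189, 231, 285 and 189 normalized counts in L192P and 205, 301, 314 and 302 in WT, which overlap. This gene did not pass (log2 fold change -0.33, SE 0.17, DESeq2 adjusted p = 0.526). Kcnf1, the most abundant silent subunit, had 3443 ± 380 in L192P and 3449 ± 267 in WT (log2 fold change 0.00, SE 0.09). Of 9 silent subunits tested, 7 lay below 0, and the median was -0.08.

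Kv beta subunits bind the Kv1 pore subunits of axons and shape their inactivation and trafficking. Kcnab3 (ENSMUSG00000018470, GRCm39 chr11:69217066-69223870, plus strand) had 1629, 1617, 1476 and 1419 normalized counts in L192P replicates 1 to 4 and 1777, 1810, 1715 and 1754 in WT. The groups did not overlap. Kcnab3 had a log2 fold change of -0.20 (SE 0.07) with a DESeq2 adjusted p of 0.128. The DESeq2 adjusted p was 0.0474 with the block and 0.0694 without both replicate 1 libraries. Without L192P replicate 4 it was 0.453, and Kcnab3 passed in 1 of 17 alternative fits, the block. The exact permutation p of 0.0286 again only repeats the non-overlap. The antisense gene Kcnab3os overlaps an exon of Kcnab3. Kcnab2, the highest member per kilobase, had 11630 ± 1030 in L192P and 12790 ± 1130 in WT (log2 fold change -0.14, SE 0.08, DESeq2 adjusted p = 0.643). All 3 Kcnab genes lay below 0. None of the 6 tested Kv1 pore genes passed with DESeq2 (0 at an unadjusted p under 0.05), and 3 lay below 0 and 3 above. Kcna2, the most abundant of them, had a log2 fold change of -0.04 (SE 0.07, 95% interval -0.18 to 0.10).

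**Figure D3:**
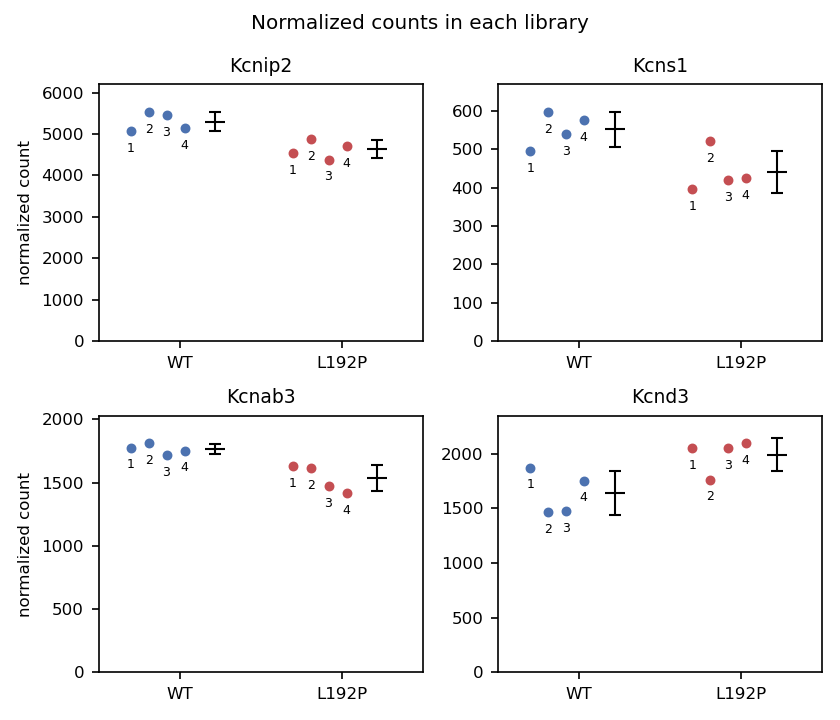
Normalized counts of 4 potassium channel genes in each WT (blue) and L192P (red) library, numbered by replicate, with the mean and SD of 4 libraries as bars. Kcnip2 and Kcnab3 do not overlap between genotypes, while Kcns1 and Kcnd3 overlap.

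Ratios between genes whose products share a channel were formed within each library, which removes the size factor. These pairs were chosen after the values were seen, so they are given without a test. Kcnd3/Kcnd2 averaged 0.683 ± 0.044 in L192P and 0.57 ± 0.048 in WT, with L192P replicate 2 (0.624) just under WT replicate 1 (0.629). Kcnip2/Kcnd2 was 1.49, 1.73, 1.55 and 1.59 in L192P replicates 1 to 4 and 1.7, 2.05, 1.92 and 1.72 in WT, with means of 1.59 ± 0.1 and 1.85 ± 0.17. L192P replicate 2 lay above WT replicates 1 and 4, and the other 3 L192P libraries lay below all WT libraries.

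**Figure D4:**
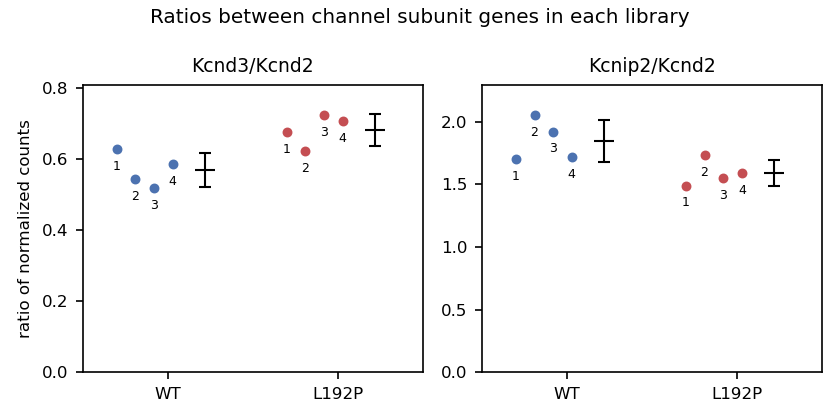
Ratios of normalized counts between channel subunit genes in each WT (blue) and L192P (red) library, numbered by replicate, with mean and SD of 4 libraries. In both ratios L192P replicate 2 lies on the WT side of at least 1 WT library, and the other 3 L192P libraries do not overlap WT.

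Kcnh genes encode the EAG, ERG and ELK channels. Kcnh1, the neuronal EAG channel, had 1937, 1798, 1678 and 1944 normalized counts in L192P replicates 1 to 4 and 1827, 2156, 2142 and 2402 in WT. WT replicate 1 lay among the L192P values and the other WT libraries lay above them. The log2 fold change was -0.21 (SE 0.09) with a DESeq2 adjusted p of 0.323. The DESeq2 adjusted p was 0.0914 with the block, 0.00688 without both replicate 1 libraries and 0.0171 without WT replicate 1 alone. Without WT replicate 4 it was 0.811, and Kcnh1 passed in 2 of 17 alternative fits. Kcnh2, the ERG channel known from the heart's repolarization, had 981.7 ± 75.6 in L192P and 864.8 ± 63.8 in WT (log2 fold change 0.18, SE 0.08, DESeq2 adjusted p = 0.431). Kcnh8, an ELK channel, had 13.1, 28.4, 12.7 and 15.6 normalized counts in L192P and 11.8, 9.6, 7.6 and 4.68 in WT. The groups did not overlap, yet the DESeq2 adjusted p was 0.471 at a log2 fold change of 1.02 (SE 0.49), the largest of the 80 tested. Kcnh3, the most abundant Kcnh gene, had a log2 fold change of -0.05 (SE 0.09).

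Kv3 channels allow fast firing, above all in interneurons. None of the 4 Kcnc genes passed with DESeq2, with 0 at an unadjusted p under 0.05, and their log2 fold changes lay between -0.09 and 0.05. Kcnc1, the most abundant, had 5282 ± 204 in L192P and 5101 ± 113 in WT (95% interval of the log2 fold change -0.05 to 0.15). Among GABAergic interneuron markers, Gad2 was higher in L192P and, with the block, Pvalb of fast-spiking cells was lower (log2 fold change -0.22, DESeq2 adjusted p = 0.121, 0.00907 with the block). The summed counts of that list overlapped between genotypes (29564 to 32658 in L192P, 27539 to 31460 in WT).

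Calcium- and sodium-activated channels and BK beta subunits gave no DESeq2 call among 10 tested genes and 0 at an unadjusted p under 0.05, with log2 fold changes from -0.17 to 0.16. Kcnma1, the BK pore subunit that helps end the action potential, had 5164 ± 391 in L192P and 5397 ± 449 in WT (log2 fold change -0.06, SE 0.08, DESeq2 adjusted p = 0.917).

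Inward rectifiers set the resting potential, and their G protein-gated members (GIRK) answer to inhibitory receptors. None of 13 tested Kcnj genes passed with DESeq2 (1 lower and 1 higher at an unadjusted p under 0.05), and 9 lay below 0. Kcnj5, a GIRK subunit that is sparse in cortex, had 32.7, 36.4, 27.7 and 50.3 normalized counts in L192P replicates 1 to 4 and 20.9, 15.3, 30.4 and 12.9 in WT. WT replicate 3 lay above the lowest L192P library. The log2 fold change was 0.90 (SE 0.35, DESeq2 adjusted p = 0.252), and its count was too low to enter the adjusted test with the block. Kcnj4, the most abundant inward rectifier, had 3832 ± 268 in L192P and 3965 ± 399 in WT (95% interval of the log2 fold change -0.21 to 0.11).

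Kcnj10, the inward rectifier with which astrocytes take up potassium, was named after its values were seen because it followed the replicate number and not the genotype. It had 2008, 3005, 3637 and 3117 normalized counts in L192P replicates 1 to 4 and 2157, 3016, 3545 and 3579 in WT. Both replicate 1 libraries lay below the other 6, and the genotypes overlapped almost wholly (log2 fold change -0.06, SE 0.24). The summed counts of 6 astrocyte markers were 14805 and 16350 in the replicate 1 libraries and 20612 to 23105 in the others. Both were also below the other 6 libraries in the sums of oligodendrocyte (88006 and 89791), microglia (4615 and 4869) and endothelial and mural markers (1507 and 1774). The remaining marker lists did not set both replicate 1 libraries below the rest. Over the tested members, 5 had both replicate 1 libraries below the other 6 (6.25%, against 9.89% of all genes: Kcnj10, Kcnh3, Kcnk3, Kcnk4 and Kcne1l) and 8 had both above (10%, against 8.86%: Kcna1, Kcna3, Kcna5, Kcnc2, Kcng1, Kcnh6, Kcnip4 and Kcnj6). Kcnj16, which joins Kcnj10 in glia, had 374.2 ± 53.1 in L192P and 346.3 ± 50.8 in WT.

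**Figure D5:**
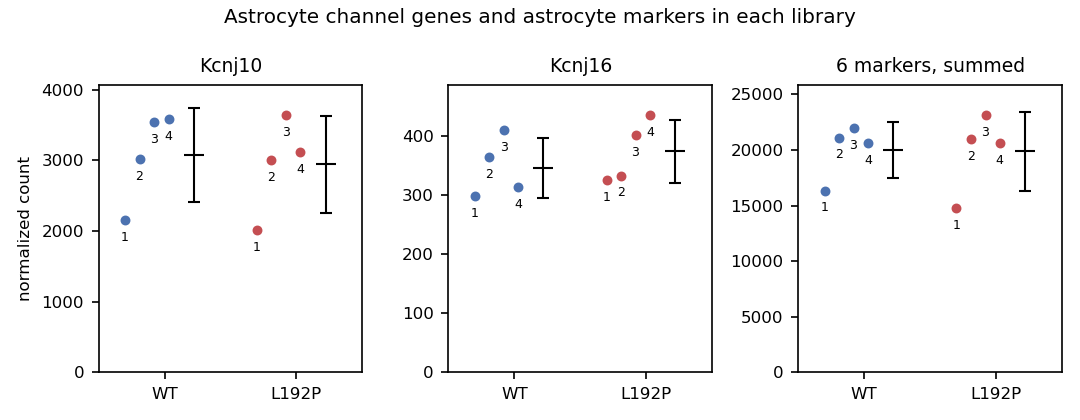
Normalized counts of Kcnj10 and Kcnj16 and the summed normalized counts of 6 astrocyte markers in each WT (blue) and L192P (red) library, numbered by replicate, with mean and SD of 4 libraries. Replicate 1 is the lowest library of each genotype in all 3 panels, and the genotypes overlap.

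Two-pore channels carry background potassium current. None of 9 tested Kcnk genes passed with DESeq2 (1 lower at an unadjusted p under 0.05), and the median log2 fold change was 0.02. Kcnk2, a channel gated by stretch and lipids, had 2442, 2393, 2124 and 2541 normalized counts in L192P replicates 1 to 4 and 2762, 2531, 2453 and 2913 in WT. These overlap, and the log2 fold change was -0.17 (SE 0.08, DESeq2 adjusted p = 0.456, 0.0636 with the block). Kcnk5, a channel sensitive to pH, had few counts, with 21.59 ± 9.06 in L192P and 16.4 ± 9.62 in WT.

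Kcne genes encode small single-pass subunits. Kcne2, which serves the choroid plexus epithelium, had 86.9, 139, 165 and 56.3 normalized counts in L192P replicates 1 to 4 and 114, 185, 92.3 and 86.6 in WT. The genotypes overlapped, at a log2 fold change of -0.11 (SE 0.30). The summed counts of 6 choroid plexus markers were 16625 to 38324 in L192P and 14397 to 32675 in WT, highest in L192P replicates 2 and 3 and WT replicate 2, where Kcne2 was highest too. The part of this tissue in the Kcne2 values was not tested. Kcnrg, a soluble regulator of Kv1 assembly, had 15.04 ± 3.41 in L192P and 18.44 ± 5.68 in WT (log2 fold change -0.28, SE 0.41).

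A list of 32 partner genes of these channels, of which 31 were tested, gave 0 calls with DESeq2, where 1.36% of all genes passed. By edgeR and limma-voom it also gave 0 calls, where only 55 and 45 of all genes passed. At an unadjusted p under 0.05, 4 of them were lower and 3 higher, where 4.49% and 4.94% of all genes were. The smallest p belonged to Hcn4, a cyclic nucleotide-gated cation channel of pacemaker cells, which had 188.7 ± 30.8 normalized counts in L192P and 133.4 ± 13.4 in WT (log2 fold change 0.50, SE 0.16, DESeq2 adjusted p = 0.0751). For Hcn4 the DESeq2 adjusted p was 0.113 with the block and 0.278 without both replicate 1 libraries. Gnb5, a G protein subunit of the complex that speeds GIRK closing, had a log2 fold change of -0.19 (SE 0.07, DESeq2 adjusted p = 0.163). Cntnap2, which clusters Kv1 channels along the axon, had one of 0.16 (SE 0.06, DESeq2 adjusted p = 0.186, 0.0886 with the block, 0.027 without both replicate 1 libraries), and its groups did not overlap. With the block, 4 of 30 passed, where 4.25% of all genes did. The scaffold genes Dlg2 (DESeq2 adjusted p = 0.021) and Dlg4 (0.00503) and Gnb5 (0.00757) were lower. Dpp10, a Kv4 auxiliary subunit, was higher (DESeq2 adjusted p = 0.00642). Without both replicate 1 libraries, Dlg2, Dlg4 and Dpp10 did not pass (DESeq2 adjusted p = 0.23, 0.124 and 0.113), and Gnb5 did (0.033).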

How the data were processed

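Cortical RNA of 4 AGO2_L192P/+ and 4 wild-type libraries was sequenced as stranded mRNA libraries, per the labels. The authors aligned reads with STAR (2.7.9a in the submitters' processing notes) to GRCm39 and counted them per gene with featureCounts 1.5.1; the deposited unit was the raw count, without pooling. The strand setting and annotation release are not given in the sources used here. A second deposited table of normalized values was not used. Library totals ran from 20396357 to 43575900 counts, and the floor given for a count of 0 covers counting error only, while the intervals of fold changes include the spread between libraries.

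DESeq2 1.42.0 in R 4.3.3 was fitted over the whole table with genotype as the only term. The fit used independent filtering at 0.05, the Cook filter and Benjamini-Hochberg adjustment. The study also used DESeq2, but its model terms are not given. A gene was called at an adjusted p under 0.05. Fold changes are unshrunken. Named genes were members called, up to 10 others with an unadjusted p under 0.05, the most abundant of each subfamily and the 3 largest and 3 smallest fold changes; others are named as chosen after their values were seen. Some genes enter the counts but are not reported here by name. The members and lists were chosen with earlier results of these data known. Gene positions and exon lengths came from GENCODE M39 (98.8% of identifiers found; all 93 members).

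Deviations from group means over 13422 genes correlated at 0.63, 0.38, 0.23 and 0.33 between same-numbered libraries and at -0.38 to 0.14 over the 12 other pairs, so the numbers were treated as pairing the libraries. Pairwise chi-square tests gave 5.52 to 22.6 per degree of freedom, so no libraries were merged. Alternatives were TMM and total-count size factors, edgeR 4.0.16 (quasi-likelihood), limma-voom 3.58.1, a minimum of 10 counts in 4 libraries, each filter off, the replicate block, and libraries left out. Programs were tested on simulated counts.

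Of 10 marker lists of 6 genes each, 4 held a call or groups whose sums did not overlap: excitatory neurons, striatum, GABAergic interneurons and hippocampus (Calb2 higher). Astrocyte, oligodendrocyte, microglia, endothelial, choroid plexus and thalamus markers gave 0 calls with DESeq2, though with the block Cx3cr1 of microglia and Slc17a6 of thalamus were higher (adjusted p = 0.0416 and 0.0299), and no marker was at 0.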

Additional observations from a re-analysis of the deposited data

Results flagged for a closer look

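In 4 of 50 groups of 4 libraries screened, over the named members, 1 library lay far from the other 3 by Dixon's ratio (gap over range), where chance gives about 1 in 20, or 2.5. Kcnd3 in L192P replicate 2 had 1765 normalized counts against 2050 to 2095 in the others (ratio 0.864). Kcnab2 in L192P replicate 3 had 13164 against 10914 to 11258 (ratio 0.847). Kcnrg in WT replicate 4 had 26.9 against 15.2 to 16.4 (ratio 0.899). Kcng4 in WT replicate 1 had 205 against 301 to 314 (ratio 0.882).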

How the results depend on the processing

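The count of potassium channel genes called was 1 and changed in most settings: 2 with TMM size factors and with a minimum of 10 counts (Kcnip2 included), 0 with total-count size factors, edgeR, limma-voom and independent filtering off, and 6 without replicate 1 of both genotypes. With the replicate block, which treats same-numbered libraries as pairs though the labels do not state pairs, it was 6. Leaving out 1 library gave 0 to 5 members: 0 when the library dropped was L192P replicate 1 or 4, or any WT library other than replicate 1, and 5 without WT replicate 1. Over all genes the count was 253, with 55 by edgeR, 45 by limma-voom, 533 with the replicate block, 500 without replicate 1 of both genotypes, and 112 to 496 without 1 library, outside 1.5 times the full count for each library but L192P replicate 1. With total-count size factors it was 232, of which 168 were higher, against 147 of 253. The median log2 fold change of the tested members was -0.051 and ranged from -0.069 (without WT replicate 3) to -0.026 (total-count size factors, which raised the median of all genes by 0.024). Named genes near 0 changed sign when 1 library was left out: Kcnd2 ranged from -0.0127 to 0.0381 (below 0 without L192P replicate 1, at -0.003, or WT replicate 2), Kcne2 from -0.36 to 0.19 (above 0 without L192P replicate 4, at 0.11, or WT replicate 2), Kcnf1 from -0.064 to 0.0676 (above 0 also without WT replicate 2, at 0.0238, or 4, at 0.0212) and Kcnh3 from -0.13 to 0.0442 (above 0 without WT replicate 2). Kcnf1 was also above 0, at 0.0228, with total-count size factors. The cause of these changes was not tested. Log2 changes under about 0.16 in abundant members, and under 0.69 in rare ones, lay within the 95% half-width at the median SE.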
